A study of Mus musculus with 3 samples.

Results

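Expression of 9 genes of bone-forming cells, out of 27179 in the table, was followed: *Runx2*, *Sp7*, *Alpl*, *Ibsp*, *Pth1r*, *Mef2c*, *Dlx5*, *Msx2* and *Phex*. They were picked by name for their roles in osteoblast commitment and mineralisation, and their gene identifiers were matched to mouse symbols. All 9 were found. They were measured in cultures labelled mouse bone marrow stromal cells (mBMSCs), of wild-type genotype, grown under 3% oxygen. For 3 days the cells were given extracellular vesicles (EVs), membrane particles shed by cells. The Ocn-EV culture received vesicles from CAGS-Snorkel mice carrying Ocn-Cre, a driver of mature osteoblasts. The Prx1-EV culture received vesicles from CAGS-Snorkel mice carrying Prx1-Cre, a driver of limb mesenchyme and the cells descended from it. The All-EV culture received vesicles from wild-type mice and was the control. Each preparation came from the pooled marrow plasma of 5 C57BL/6N mice, 2 male and 3 female, killed at 6 months. All 3 preparations are described as taken up on magnetic beads with an HA antibody, and how vesicles of wild-type mice were retained is not stated in the labels. Each group is 1 culture and 1 messenger RNA library, so there is no replicate spread and no test between conditions, and every difference below is a difference between single libraries.

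An osteoblast forms when a mesenchymal progenitor switches on the transcription factor Runx2 and then, downstream of it, Sp7 (osterix), and mice that lack either form no mineralised bone. The committed cell lays down type I collagen and mineralises it with the help of surface phosphatases and acidic matrix proteins. Dlx5 and Msx2 are homeobox factors that act on this programme, Mef2c is a MADS-box factor of muscle, bone and several blood cell lineages, and Pth1r carries the signal of parathyroid hormone into osteoblasts. Phex is an endopeptidase of late osteoblasts and osteocytes whose loss causes phosphate wasting.

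Values are the deposited normalised read counts, called levels here, with whole reads recovered from them. The libraries held 14233978 reads on genes with Ocn-EV, 17269204 with Prx1-EV and 15558165 with All-EV. Brackets after a level or a fold give its 95% exact interval, which covers counting error only. The cultures were mixed by their markers. All 16 stromal progenitor markers had reads in all 3 libraries, and together they took 0.0474% of reads with Ocn-EV, 0.0397% with Prx1-EV and 0.0227% with All-EV. The 20 macrophage markers took 1.33% of reads with Ocn-EV, 1.18% with Prx1-EV and 1.79% with All-EV. None of the 20 was at 0 in any library, and their levels ranged between 165 and 51741 with Ocn-EV, 55.0 and 40548 with Prx1-EV, and 11.3 and 140306 with All-EV. The libraries also differed in *Xist*, the X-inactivation transcript of female cells, at a level of 126 with Ocn-EV, 5.23 with Prx1-EV and 320 with All-EV. The Y-linked *Ddx3y* was at 1473 with Ocn-EV, 1671 with Prx1-EV and 1413 with All-EV. In bulk RNA, a different number of cells of a type and a different amount of RNA per cell cannot be told apart, and the part of the cell mixture, or of cells of either sex, in the results below was not tested.

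*Runx2* (chr17:44495987-44814797, mm10), the first transcription factor of the osteoblast lineage, was at nearly the same deposited level everywhere. Its level was 290 with Ocn-EV, 254 with Prx1-EV and 244 with All-EV, from 280, 291 and 216 reads in the same order. The 3 values overlap within counting error. The fold was 1.19 (0.990 to 1.42) for Ocn-EV over All-EV, 1.04 (0.868 to 1.24) for Prx1-EV over All-EV and 1.14 (0.966 to 1.35) for Ocn-EV over Prx1-EV. The overlap holds for the deposited scaling. As log2 ratios to All-EV, these were 0.25 with Ocn-EV and 0.05 with Prx1-EV. With libraries set to equal totals of reads they were 0.50 and 0.28. *Runx2* shares 519 exon bases with the antisense gene *Runx2os1*, which the table does not list, and the strand setting of the counting is not given, so reads of that partner cannot be separated.

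*Sp7* (chr15:102356603-102367035) encodes the zinc-finger factor that commits Runx2-positive progenitors to the osteoblast fate. Its level was 179 with Ocn-EV (173 reads), 50.6 with Prx1-EV (58 reads) and 13.6 with All-EV (12 reads). The 3 libraries were separated beyond counting error, in the order Ocn-EV, Prx1-EV, All-EV. The fold was 13.2 (7.36 to 26.0) for Ocn-EV over All-EV, 3.73 (1.98 to 7.62) for Prx1-EV over All-EV and 3.54 (2.62 to 4.85) for Ocn-EV over Prx1-EV.

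*Mef2c* (chr13:83504017-83667079), whose product drives muscle differentiation and in osteocytes the sclerostin gene, had another pattern. Its level was 858 with Ocn-EV, 803 with Prx1-EV and 241 with All-EV, from 829, 920 and 213 reads in the same order. Both vesicle libraries from Cre mice were above All-EV, and they did not differ from each other beyond counting error. The fold was 3.56 (3.06 to 4.16) for Ocn-EV over All-EV, 3.33 (2.87 to 3.88) for Prx1-EV over All-EV and 1.07 (0.973 to 1.18) for Ocn-EV over Prx1-EV. Of 8 skeletal muscle markers, the regulators *Myod1*, *Myog*, *Myf5* and *Pax7* had 0 reads in all 3 libraries. The other 4 had reads in at least 1 library. The summed level of the 8 was 516 with Ocn-EV, 630 with Prx1-EV and 281 with All-EV. That sum was thus higher in both vesicle libraries from Cre mice than with All-EV, as was *Mef2c*. The highest level of a single marker was 497 with Ocn-EV, 616 with Prx1-EV and 276 with All-EV.

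The homeobox factors were close to the lower end of what these libraries can show. *Dlx5* (chr6:6877801-6882068), an activator of the *Runx2* and *Sp7* genes, had 12 reads with Ocn-EV, 14 with Prx1-EV and 7 with All-EV. *Msx2* (chr13:53466881-53472780), a homeobox factor of the skull and limb buds, had 5 reads with Ocn-EV, 13 with Prx1-EV and 5 with All-EV. The intervals of both genes are wide: for Ocn-EV over All-EV they ran between 0.569 and 4.70 for *Dlx5* and between 0.211 and 3.98 for *Msx2*, so a difference of 2-fold either way was not detectable at this depth for *Msx2*, and one of 2-fold upward was not for *Dlx5*. For Prx1-EV over All-EV the fold of *Msx2* was 2.00, with an interval of 0.671 to 7.18. Neither gene separated any pair of libraries.

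*Ibsp* (chr5:104299287-104311472), which encodes bone sialoprotein, an acidic glycoprotein that binds hydroxyapatite and cell-surface integrins, differed most of the 9. Its level was 948 with Ocn-EV (916 reads), 195 with Prx1-EV (224 reads) and 19.2 with All-EV (17 reads). All 3 libraries were separated. The fold was 49.3 (30.6 to 85.0) for Ocn-EV over All-EV, 10.2 (6.20 to 17.7) for Prx1-EV over All-EV and 4.85 (4.19 to 5.64) for Ocn-EV over Prx1-EV. Among the 11067 genes whose mean level reached 50, *Ibsp* ranked 2nd by the ratio of Ocn-EV to All-EV, 11th by that of Prx1-EV to All-EV and 3rd by that of Ocn-EV to Prx1-EV. It was under 50 with All-EV and entered this set through the other libraries, so its ranks against All-EV follow in part from the filter.

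*Alpl* (chr4:137741731-137796384) encodes tissue-nonspecific alkaline phosphatase, the enzyme that removes the mineralisation inhibitor pyrophosphate and the usual early marker of osteogenic cultures. Its level was 764 with Ocn-EV, 393 with Prx1-EV and 118 with All-EV, from 738, 450 and 104 reads in the same order. The libraries were again separated in the order Ocn-EV, Prx1-EV, All-EV. The fold was 6.49 (5.28 to 8.05) for Ocn-EV over All-EV, 3.34 (2.69 to 4.17) for Prx1-EV over All-EV and 1.95 (1.73 to 2.19) for Ocn-EV over Prx1-EV.

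*Phex* (chrX:157162075-157415286) had 4 reads with Ocn-EV and 0 reads with Prx1-EV and with All-EV. A count of 0 allows up to 3 reads, a level of 2.62 with Prx1-EV and 3.40 with All-EV, against a level of 4.14 with Ocn-EV. The gene is therefore at or near the floor in every library, and no difference was detectable.

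*Pth1r* (chr9:110722085-110747145), the G-protein-coupled receptor for parathyroid hormone and its related peptide, followed the order of *Sp7*, *Ibsp* and *Alpl*. Its level was 282 with Ocn-EV (272 reads), 120 with Prx1-EV (138 reads) and 36.2 with All-EV (32 reads). No pair of libraries overlapped within counting error. The fold was 7.78 (5.38 to 11.6) for Ocn-EV over All-EV, 3.32 (2.25 to 5.05) for Prx1-EV over All-EV and 2.34 (1.90 to 2.89) for Ocn-EV over Prx1-EV. It shares 95 exon bases with *Myl3*, whose level was 2.07 with Ocn-EV, 0.872 with Prx1-EV and 0 with All-EV.

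**Figure D1:**
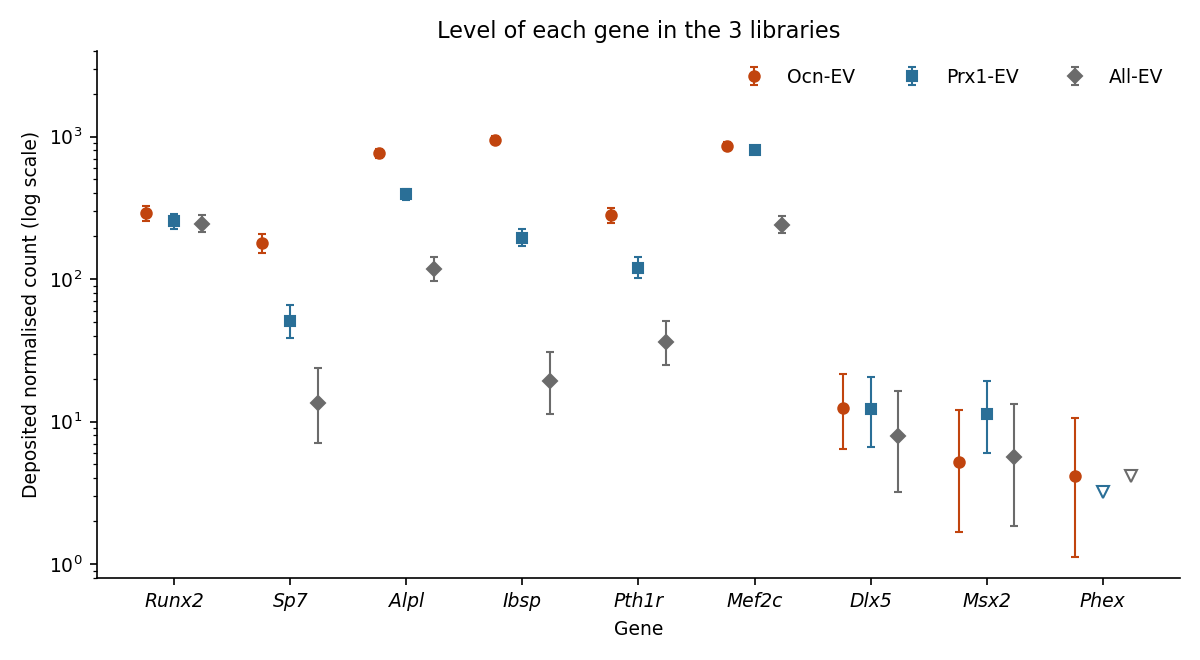
Deposited normalised count (log scale) of the 9 genes in the 3 libraries, with 95% exact Poisson intervals; open triangles mark the upper limit of 0 reads. *Sp7*, *Alpl*, *Ibsp* and *Pth1r* step down in the order Ocn-EV, Prx1-EV, All-EV, *Mef2c* is high in the first 2 groups (858 and 803) and 241 with All-EV, and *Runx2* lies between 290 and 244 throughout.

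Of the 9 genes, 6 reached the expression filter, a mean of 50 or more over the 3 libraries, and *Dlx5*, *Msx2* and *Phex* did not. In Ocn-EV over All-EV, 5 of the 6 were at least 2-fold higher, against 6.27% of all 11067 genes at the filter, and 0 were at least 2-fold lower, against 4.2%. In Prx1-EV over All-EV the same 5 genes were at least 2-fold higher, against 5.12% of all genes, and 0 were lower, against 3.66%. With libraries set to equal totals of reads, which moved the median of all genes to a log2 ratio of 0.24 and 0.23, the shares of all genes at least 2-fold higher were 10.2% and 8.28%, and the count of 5 stood in both comparisons. These comparisons share the All-EV library. *Sp7*, *Ibsp* and *Pth1r* were under 50 with All-EV and reached the filter through the other libraries, so their place in the count follows in part from the filter. The median log2 ratio of the 6 was 2.81 for Ocn-EV over All-EV and 1.73 for Prx1-EV over All-EV, beside -0.02 and 0.00 for all genes at the filter.

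The comparison of Ocn-EV with Prx1-EV, whose ratio leaves the control library out, gave a shorter list. The filter still used the mean over all 3 libraries. *Sp7* was at 179 with Ocn-EV, 50.6 with Prx1-EV and 13.6 with All-EV, so its place in the count follows in part from the filter. Of the 6 genes, 3 (*Ibsp*, *Sp7* and *Pth1r*) passed 2-fold in favour of Ocn-EV, against 0.325% of all genes, or 36 of 11067. None of the 6 was at least 2-fold lower, against 0.19%. *Alpl*, at 1.95-fold, lay just under the threshold and *Pth1r*, at 2.34-fold, just over it. *Runx2*, at 1.14-fold, and *Mef2c*, at 1.07-fold, had intervals that include 1. By rank among 11067 genes, *Sp7* was 5th, *Pth1r* 17th and *Alpl* 47th, while *Runx2* was 1928th and *Mef2c* 3182nd.

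**Figure D2:**
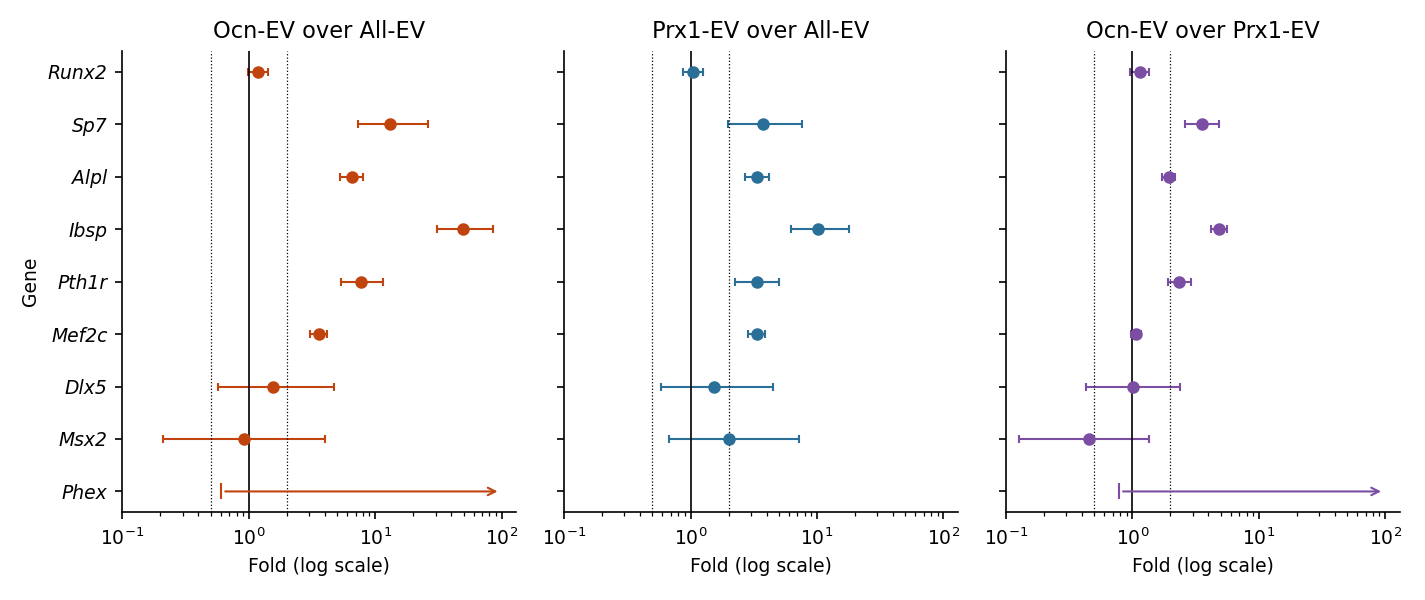
Fold (log scale) of each gene between pairs of libraries, with 95% exact conditional binomial intervals. Dotted lines mark 2-fold either way. Arrows mark *Phex* in the panels of Ocn-EV, where only a lower limit exists (0.604 over All-EV and 0.784 over Prx1-EV). With 0 reads in both libraries of the other panel, it is not drawn there. *Ibsp* has the largest fold that could be computed in all 3 panels (49.3, 10.2 and 4.85). *Mef2c* is past 2-fold against All-EV but at 1.07 for Ocn-EV over Prx1-EV.

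**Figure D3:**
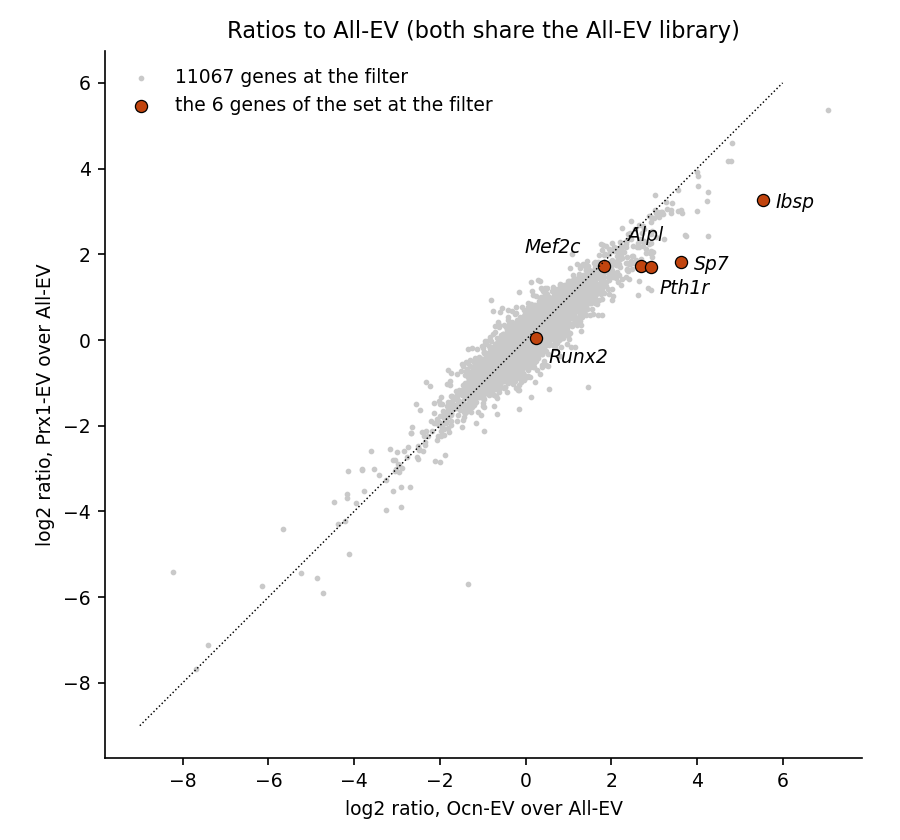
The log2 ratio of Ocn-EV to All-EV (horizontal axis) and of Prx1-EV to All-EV (vertical axis) for 11067 genes, with 6 of the 9 genes marked; the dotted line is equality, and both axes share the All-EV library. *Ibsp* (5.55 and 3.28), *Sp7* (3.63 and 1.82), *Pth1r* (2.93 and 1.71) and *Alpl* (2.69 and 1.73) lie to the right of the line, and *Mef2c* (1.83 and 1.73) lies close to it.

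Per kilobase of the longest annotated transcript, which allows levels of different genes to be compared, the order of the genes differed between libraries. With Ocn-EV, *Ibsp* was highest at 459 per kilobase, followed by *Alpl* at 303, *Mef2c* at 137, *Pth1r* at 122, *Sp7* at 57.8 and *Runx2* at 44.9. With Prx1-EV, *Alpl* led at 156 per kilobase, *Mef2c* followed at 128 and *Ibsp* at 94.5, and *Runx2* at 39.3 stood above *Sp7* at 16.3. With All-EV, *Alpl* at 46.7 per kilobase, *Mef2c* at 38.4 and *Runx2* at 37.8 were the top genes and overlapped in their intervals, whereas *Ibsp* was at 9.30 and *Sp7* at 4.38. *Sp7* thus stood above *Runx2* per length with Ocn-EV, although their intervals (49.5 to 67.1 and 39.8 to 50.4 per kilobase) overlap, and well below it with Prx1-EV and All-EV. *Mef2c* and *Pth1r* also overlapped with Ocn-EV.

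Together the 9 genes took 0.0227% of reads with Ocn-EV (0.0219 to 0.0235), 0.0122% with Prx1-EV (0.0117 to 0.0127) and 0.00390% with All-EV (0.00359 to 0.00422), from 3229, 2108 and 606 reads in the same order. *Ibsp* made up 28.4% of the reads of the 9 with Ocn-EV, 10.6% with Prx1-EV and 2.81% with All-EV. *Runx2* made up 8.67% with Ocn-EV, 13.8% with Prx1-EV and 35.6% with All-EV. *Mef2c* made up 25.7% with Ocn-EV, 43.6% with Prx1-EV and 35.1% with All-EV.

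Ratios of reads within a library do not depend on how libraries are scaled. For each 100 reads of *Runx2*, there were 327 reads of *Ibsp* with Ocn-EV, 77.0 with Prx1-EV and 7.87 with All-EV. The same ratio for *Sp7* was 61.8 with Ocn-EV, 19.9 with Prx1-EV and 5.56 with All-EV, a fold of 11.1 (5.98 to 22.5) for Ocn-EV over All-EV and 3.59 (1.85 to 7.51) for Prx1-EV over All-EV. For *Alpl* it was 264 with Ocn-EV, 155 with Prx1-EV and 48.1 with All-EV. Relative to *Runx2*, all 5 of these later-acting or receptor genes, *Mef2c* included, were thus higher in both vesicle libraries from Cre mice than with All-EV, with no interval that includes 1.

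*Prrx1*, a homeobox gene of limb mesenchyme and stromal progenitors, was itself higher, at a level of 715 with Ocn-EV, 522 with Prx1-EV and 303 with All-EV. For each 100 reads of *Prrx1*, *Ibsp* had 133 reads with Ocn-EV, 37.5 with Prx1-EV and 6.34 with All-EV, a fold of 20.9 (12.6 to 36.7) for Ocn-EV over All-EV. The fold of this ratio for Ocn-EV over All-EV was 5.59 (3.05 to 11.2) for *Sp7*, 3.30 (2.21 to 5.05) for *Pth1r*, 2.75 (2.13 to 3.57) for *Alpl* and 1.51 (1.22 to 1.87) for *Mef2c*. *Runx2* went the other way, with 40.5 reads per 100 of *Prrx1* with Ocn-EV, 48.7 with Prx1-EV and 80.6 with All-EV, a fold of 0.503 (0.398 to 0.635) for Ocn-EV over All-EV.

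Relative to *Col1a1*, the main collagen of bone, the ratios of *Alpl* and *Pth1r* were not separated from those with All-EV. Those of *Ibsp* were higher and those of *Runx2* lower against All-EV. For Ocn-EV over Prx1-EV the ratios of *Alpl* and *Pth1r* were separated, at 1.32 (1.17 to 1.48) and 1.58 (1.29 to 1.94). *Col1a1* had a level of 44981 with Ocn-EV, 30400 with Prx1-EV and 7861 with All-EV. For each 100 reads of it, *Sp7* had 0.398 reads with Ocn-EV, 0.166 with Prx1-EV and 0.173 with All-EV. The fold of the ratio for *Alpl* for Ocn-EV over All-EV, 1.13 (0.923 to 1.40, an approximate Woolf interval as are the others for this denominator), includes 1. The fold for *Pth1r*, 1.36 (0.941 to 1.96), includes 1 too. The ratio of *Ibsp* to *Col1a1* was higher in both comparisons, by 8.62 (5.33 to 13.9) for Ocn-EV over All-EV and 2.63 (1.6 to 4.30) for Prx1-EV over All-EV. That of *Sp7* was higher with Ocn-EV, at 2.31 (1.28 to 4.14), and not with Prx1-EV, at 0.963 (0.517 to 1.79). *Mef2c* was lower relative to *Col1a1* with Ocn-EV, at 0.622 (0.534 to 0.725), and *Runx2* in both, at 0.207 (0.173 to 0.248) and 0.269 (0.225 to 0.321).

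**Figure D4:**
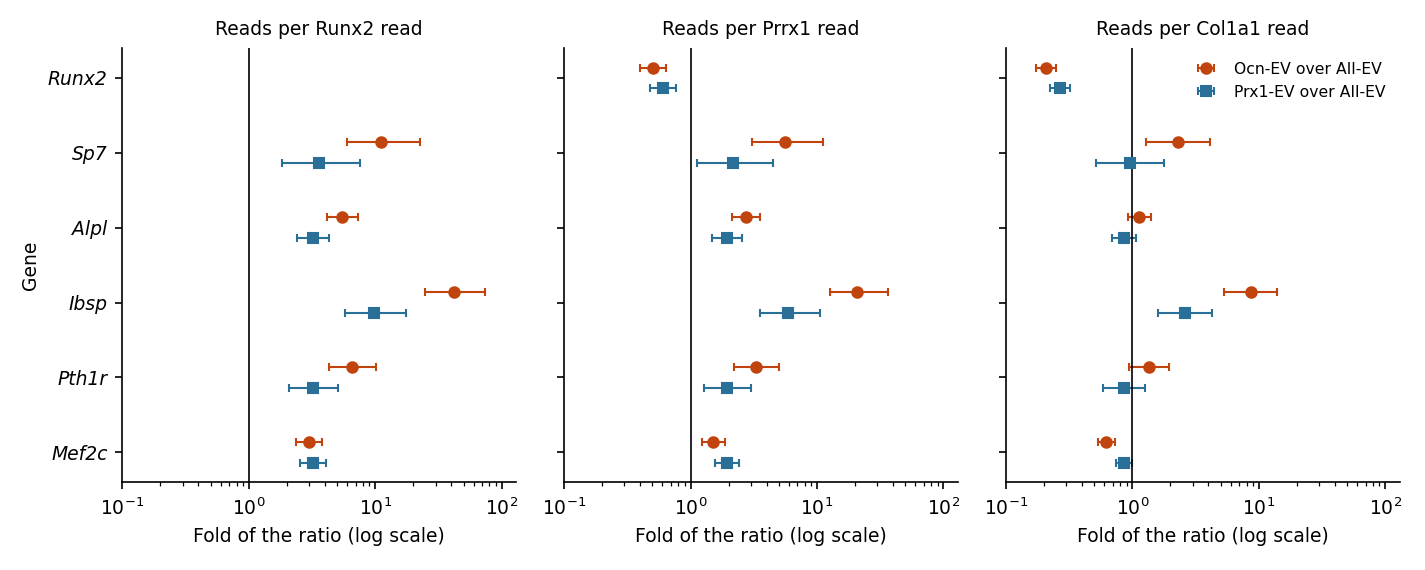
Fold (log scale) between libraries of the reads of each gene per read of *Runx2*, *Prrx1* or *Col1a1* in the same library, for Ocn-EV over All-EV and Prx1-EV over All-EV, with 95% intervals (exact, or Woolf for *Col1a1*). *Ibsp* lies right of 1 in all 3 panels (41.6, 20.9 and 8.62 for Ocn-EV), whereas *Alpl* and *Pth1r* reach 1 when read against *Col1a1*.

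The sequences just before 2 of the start sites are shown because *Ibsp* had the largest and *Runx2* the smallest ratio to All-EV of the 6. They are RefSeq promoters of GRCm38.p6, the 250 bases before the annotated start, 5′ to 3′ on the gene's strand, at chr5:104299037-104299286 (plus strand) and chr17:44814628-44814877 (minus strand). The *Runx2* gene span given above ends at 44814797, so this minus-strand window lies partly inside it and precedes a start within the gene. Capitals mark a match to a searched motif.

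Ibsp: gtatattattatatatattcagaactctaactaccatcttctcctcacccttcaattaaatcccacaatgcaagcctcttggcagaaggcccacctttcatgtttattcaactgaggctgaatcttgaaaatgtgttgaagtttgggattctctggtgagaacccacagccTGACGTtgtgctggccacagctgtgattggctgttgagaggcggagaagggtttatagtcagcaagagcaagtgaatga

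Runx2: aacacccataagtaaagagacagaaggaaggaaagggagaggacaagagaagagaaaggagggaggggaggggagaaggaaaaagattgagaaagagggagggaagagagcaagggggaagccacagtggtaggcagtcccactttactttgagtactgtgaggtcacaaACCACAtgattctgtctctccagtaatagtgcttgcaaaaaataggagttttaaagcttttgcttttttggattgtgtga

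The capitals in *Ibsp* are the core of a cyclic AMP response element, TGACGT, 79 bases before the start, and those in *Runx2* are ACCACA, the reverse complement of the RUNX core TGTGGT, 80 bases before the start. Of the 9 genes, 7 had promoters in the RefSeq table, with 12 windows in all. Searched on both strands, RUNX cores (TGTGGT or TGCGGT) were in 1 of the 12 windows, against 18.6% of all 32851 promoter windows of the same length. The cyclic AMP core was in 1 of 12, against 6.47% of all windows, and the homeodomain core TAATTA in 2 of 12 (*Mef2c* and *Msx2*), against 4.84%. AP-1 sites (TGAGTCA or TGACTCA) were in 0 of 12, against 4.46%. A match of letters is no measured binding site, and no match says only that the letters are not in these windows.

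By closeness of both log2 ratios to All-EV (Euclidean distance over the 2 ratios, which share that library), the 5 genes nearest to *Alpl* were *Hspa1b* and *Cthrc1* at 0.17 each, *Col3a1* at 0.19, *Fgd2* at 0.21 and *Pth1r* at 0.24. *Alpl* was in turn among the 5 nearest to *Pth1r*, beside *Efs* at 0.24, *Hspa1b* at 0.30, *Col15a1* at 0.33 and *Clec11a* at 0.34. *Sp7* had fewer close neighbours: *Cd163*, a macrophage scavenger receptor, at 0.62, *Rspo2*, a secreted Wnt agonist, at 0.64, and *Pappa2* at 0.68. The nearest to *Ibsp* was *Megf6*, at 1.17. *Mef2c* lay in a dense region, with *Cd72* at 0.04 and *Unc5c* at 0.05.

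The partners of Runx2 had no common direction. Of 20 such genes, 15 were at the filter. For Ocn-EV over All-EV, 2 were at least 1.5-fold higher (13.8% of all genes were) and 2 lower (13.6% of all genes), with a median log2 ratio of 0.02, and for Prx1-EV over All-EV the counts were again 2 higher and 2 lower (12.7% of all genes each way), with a median of 0.05. *Ets1*, an ETS factor, had log2 ratios of 0.94 for Ocn-EV and 0.71 for Prx1-EV over All-EV, and the GATA-type repressor *Trps1* had 0.89 and 0.59. *Atf4*, a bZIP factor needed for osteoblast function, had -0.99 and -0.72, and the corepressor *Tle3* had -0.77 and -0.78. With equal totals the counts were 3 higher and 1 lower for Ocn-EV, against 24.9% and 6.58% of all genes. For Prx1-EV they were 4 and 0, against 23.1% and 6.45%. *Cbfb*, the partner subunit that Runx2 needs to bind DNA, had a level of 1192 with Ocn-EV, 1232 with Prx1-EV and 1386 with All-EV. Below the filter, the zinc-finger gene *Zbtb16* had 78 reads with Ocn-EV, 48 with Prx1-EV and 8 with All-EV.

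The other homeobox genes of the family of *Dlx5* and *Msx2* were as low as those 2. None of 7 reached the filter, and the highest was *Dlx3*, with 14 reads with Ocn-EV, 9 with Prx1-EV and 6 with All-EV. *Dlx6*, the neighbour and paralog of *Dlx5*, had 5 reads with Ocn-EV, 2 with Prx1-EV and 0 with All-EV. *Msx1* had 4 reads with Ocn-EV, 2 with Prx1-EV and 8 with All-EV.

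The relatives of *Mef2c* had smaller ratios than its 1.83 and 1.73. Of 7 MEF2 and class IIa deacetylase genes, 6 were at the filter. Of these, 2 were at least 1.5-fold higher for Ocn-EV over All-EV and 1 for Prx1-EV over All-EV, 0 were lower, and the medians were 0.24 and 0.29. Among all genes 13.8% and 12.7% were higher, and 13.6% and 12.7% lower. *Mef2a* had log2 ratios of 0.71 with Ocn-EV and 0.60 with Prx1-EV, and *Mef2d* had 0.03 in both.

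Genes that signal with or below Pth1r stayed near the median of all genes. Of 24, 19 were at the filter. For Ocn-EV over All-EV 2 were at least 1.5-fold higher and 1 lower, with a median log2 ratio of 0.16, and for Prx1-EV over All-EV 1 was higher and 1 lower, with a median of 0.09. Among all genes the shares were 13.8% higher and 13.6% lower for Ocn-EV, and 12.7% each way for Prx1-EV. With equal totals 6 were higher and 1 lower for Ocn-EV, against 24.9% and 6.58% of all genes. For Prx1-EV the counts were 4 and 0, against 23.1% and 6.45%. The adenylyl cyclase *Adcy3* had log2 ratios of 1.84 with Ocn-EV and 1.62 with Prx1-EV, and the cyclic AMP phosphodiesterase *Pde4d* had -0.92 and -0.64. The stimulatory G-protein gene *Gnas* had a level of 7790 with Ocn-EV, 7384 with Prx1-EV and 9087 with All-EV. The ligand gene *Pthlh* had 1 read with Ocn-EV, 2 with Prx1-EV and 0 with All-EV, and *Pth2r* had 0 in all 3.

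The close relatives of *Ibsp* among the SIBLING matrix proteins went in both directions. *Spp1* (osteopontin), which macrophages also make in quantity, had a level of 16825 with Ocn-EV, 17266 with Prx1-EV and 96446 with All-EV, log2 ratios of -2.52 and -2.48 to All-EV. It was thus lower by more than 2-fold in the libraries where *Ibsp* was higher. *Dmp1*, a matrix protein of osteocytes, had 19 reads with Ocn-EV, 17 with Prx1-EV and 0 with All-EV. With the All-EV library set at the floor of 3 reads, the levels were 5.79-fold and 4.37-fold higher. These folds leave out the counting error of the 19 and 17 reads. *Mepe* and *Dspp* had 0 reads throughout.

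The genes that set phosphate and pyrophosphate around *Alpl* and *Phex* went in both directions. Of 14, 9 were at the filter. For Ocn-EV over All-EV 2 were at least 1.5-fold higher and 4 lower, with a median of -0.57, and for Prx1-EV over All-EV 2 were higher and 3 lower, with a median of -0.54. Among all genes 13.8% were higher and 13.6% lower for Ocn-EV, and 12.7% each way for Prx1-EV. With equal totals the medians were -0.31 and -0.32, with 3 lower in each, where 6.58% and 6.45% of all genes were lower. *Enpp1*, which makes the pyrophosphate that Alpl removes, had log2 ratios of 0.63 with Ocn-EV and 0.77 with Prx1-EV, and the mineralisation inhibitor *Mgp*, under 50 with All-EV, had 1.25 and 1.53. *Phospho1*, a phosphatase of matrix vesicles, had -1.44 and -1.68, and *Fam20c*, the kinase of secreted SIBLING proteins, had -0.999 and -0.94. *Fgf23*, the phosphate-wasting hormone that rises when Phex is lost, had 0 reads with Ocn-EV, 3 with Prx1-EV and 4 with All-EV.

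Genes of the late osteoblast and osteocyte were mostly near the floor in all 3 libraries. Of 17, 1 was at the filter, *Pdpn*, which macrophages can also carry, with log2 ratios of -1.88 with Ocn-EV and -1.85 with Prx1-EV. *Bglap*, which encodes osteocalcin, had 4 reads with Ocn-EV and 0 with the others, and *Bglap2* had 5 with Ocn-EV, 2 with Prx1-EV and 0 with All-EV. *Omd*, which encodes the bone proteoglycan osteoadherin, had 41 reads with Ocn-EV, 26 with Prx1-EV and 4 with All-EV, and *Ifitm5* had 9, 3 and 0 in the same order. *Sost*, the Wnt inhibitor of osteocytes, had 1 read, with Prx1-EV.

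Most matrix genes of bone were higher. Of 16, 15 were at the filter. For Ocn-EV over All-EV, 13 were at least 1.5-fold higher and 0 lower (median log2 ratio 1.94), against 13.8% and 13.6% of all genes. For Prx1-EV over All-EV the counts were again 13 and 0 (median 1.29), against 12.7% each way. The remaining gene, below the filter, went the other way, at a level of 3.11 with Ocn-EV, 2.62 with Prx1-EV and 26.0 with All-EV. The fibrillar collagen *Col5a1* had log2 ratios of 2.93 and 2.26, and *Col12a1* had 2.82 and 2.12. For Ocn-EV over Prx1-EV, 6 of the 15 were at least 1.5-fold higher, against 2.24% of all genes, and 0 lower, against 1.3%, with a median of 0.43, and *Col11a1* had the largest ratio, 1.58.

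Wnt and BMP signals both act upstream of *Runx2* and *Sp7* in the osteoblast lineage. Of 20 Wnt pathway genes, 9 were at the filter, and 7 were at least 1.5-fold higher and 0 lower in both comparisons with All-EV, with medians of 1.11 for Ocn-EV and 1.17 for Prx1-EV. Among all genes 13.8% and 12.7% were higher. Of the 9, *Rspo2* and *Nkd2* were under 50 with All-EV and reached the filter through the other libraries. The agonist *Rspo2* had log2 ratios of 3.72 and 2.46, and the inhibitors *Nkd2* and *Dkk3* had 2.64 and 2.17, and 1.72 and 1.27. Of 24 BMP pathway genes, 15 were at the filter, with 3 higher and 1 lower for Ocn-EV (median 0.07) and 1 higher and 1 lower for Prx1-EV (median 0.04). Among all genes the shares were 13.8% higher and 13.6% lower for Ocn-EV, and 12.7% each way for Prx1-EV. With equal totals 5 BMP genes were higher and 1 lower for Ocn-EV, against 24.9% and 6.58% of all genes. For Prx1-EV the BMP counts were 2 and 1, against 23.1% and 6.45%. The BMP target *Id3* had log2 ratios of 1.45 and 0.92, and the BMP antagonist *Grem1* had -1.07 and -1.02. The ligand *Bmp4* had 34 reads with Ocn-EV, 29 with Prx1-EV and 5 with All-EV. Whether the 2 pathways differ was not tested.

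Markers of other cells that these cultures could hold differed between the libraries too. Among all genes as deposited, 13.8% were at least 1.5-fold higher and 13.6% lower for Ocn-EV over All-EV. For Prx1-EV over All-EV the share was 12.7% each way, and the counts below from levels as deposited stand beside these shares. Of the 14 stromal progenitor markers at the filter, 8 were at least 1.5-fold higher and 3 lower for Ocn-EV over All-EV (median 0.93), and 7 and 3 for Prx1-EV over All-EV (median 0.51). Of the 20 macrophage markers, 8 were higher and 4 lower for Ocn-EV (median 0.23), and 6 and 6 for Prx1-EV (median 0.25). *Cx3cr1* and *Cd163*, counted as higher in both, were under 50 with All-EV and reached the filter through the other libraries. The summed level of the 20 was lower, at 196045 with Ocn-EV and 177840 with Prx1-EV, against 315129 with All-EV. With equal totals the macrophage counts were 9 and 3 for Ocn-EV and 8 and 4 for Prx1-EV, and the stromal counts 9 and 2 for Ocn-EV and 9 and 3 for Prx1-EV. The shares of all genes were then 24.9% higher and 6.58% lower for Ocn-EV, and 23.1% and 6.45% for Prx1-EV. Of the 10 osteoclast markers, 6 were at the filter, with 2 higher and 3 lower in both comparisons, and *Dcstamp* and *Calcr* were at 0 in all 3 libraries. The endothelial markers summed to a level of 1964 with Ocn-EV, 2266 with Prx1-EV and 1992 with All-EV. Of 9 adipocyte markers, *Adipoq* and *Lep* had 0 reads throughout and the other 7 had reads. The summed level of the 9 was 15261 with Ocn-EV, 18295 with Prx1-EV and 13856 with All-EV. At the filter were 5, with 1 higher and 1 lower for Ocn-EV and 2 higher and 0 lower for Prx1-EV. Of these 5, *Plin4* was under 50 with All-EV. The part of these cells in the results was not tested.

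**Figure D5:**
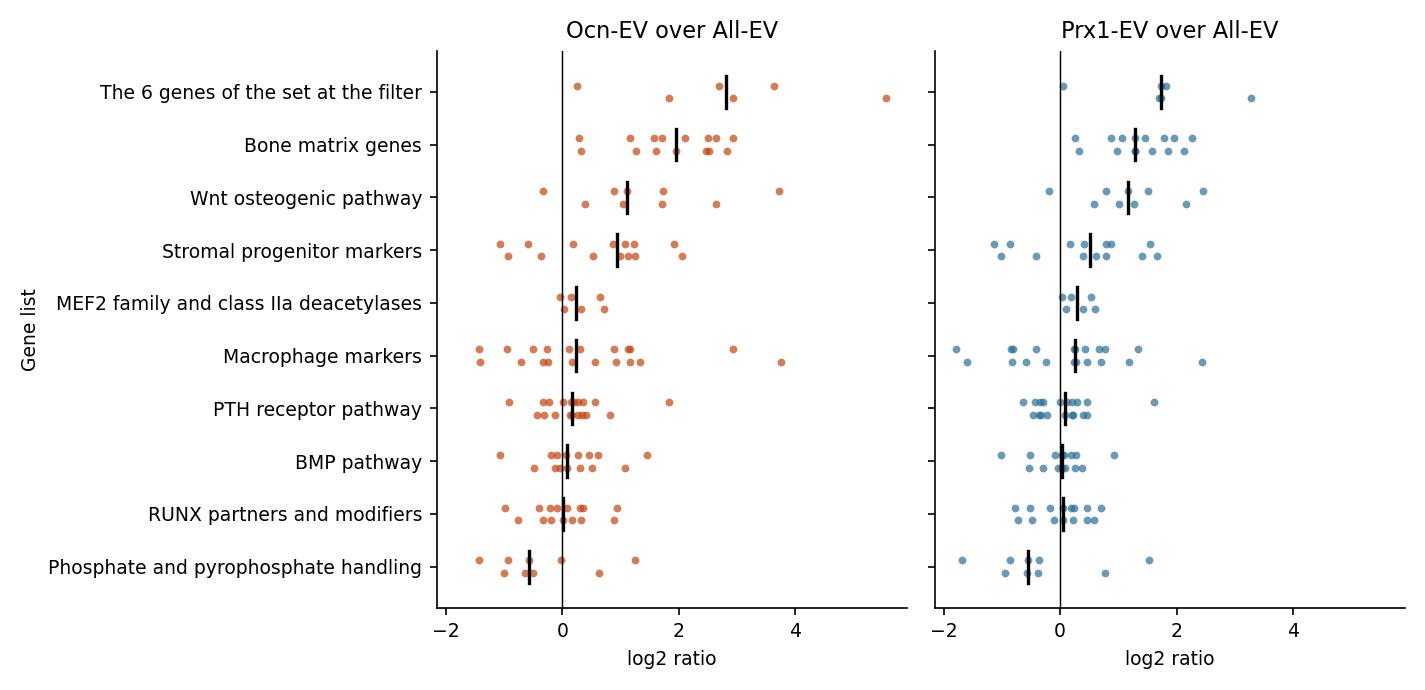
Log2 ratio to All-EV of every gene at the filter (points) in 10 gene lists, for Ocn-EV (left) and Prx1-EV (right), with the list's median as a bar. The 6 genes of the set have medians of 2.81 and 1.73 and bone matrix genes 1.94 and 1.29, whereas RUNX partners sit at 0.02 and 0.05.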

How the data were processed

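The table holds 1 value per gene and library, a signal that the authors normalised and deposited. Per the submitters' processing notes, the tools were DESeq2 (2.11.40.8), featureCounts (2.0.3) and HISAT2 (2.2.1), along with Trimmomatic (0.38.1) and FastQC (0.74), on mm10. Whether counting used strand is not stated. A single read was worth 1.04 deposited units with Ocn-EV, 0.872 with Prx1-EV and 1.13 with All-EV. Division by these gave whole reads for 100% of values (tolerance 1e-06). Symbols matched 25275 of 27179 identifiers.

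With 1 library per group, no test of a condition was made. Folds are plain ratios of levels with 95% exact conditional binomial (Clopper-Pearson) intervals from reads. Reads carry no molecular identifiers, so intervals and the floor of 3 reads cover counting error only. Log2 ratios are log2((a + 1)/(b + 1)), which understates differences of low genes. The 11067 genes whose mean level reached 50 entered counts, and a gene was called at 2-fold, or at 1.5-fold within lists. Within-library ratios carry exact conditional or Woolf intervals. Lengths came from GENCODE vM21. From each list the up to 4 genes with the largest ratios of Ocn-EV to All-EV, a set of pathway genes and the 5 nearest genes by ratio could be named; *Zbtb16*, *Omd*, *Ifitm5*, *Bglap2*, *Bmp4*, *Gnas*, *Pth2r*, *Myl3*, *Xist*, *Ddx3y*, *Comp*, *Acan*, *Mme* and the marker genes at 0 were added after their values were seen. The 9 genes, the 17 other lists and their tests were chosen with earlier results of these data known. The calculations were tested on simulated data. Analyses used Python 3.11.15, scipy 1.17.1 and edgeR 4.0.16 (TMM factors).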

Additional observations from a re-analysis of the deposited data

How the results depend on the processing

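Pseudocounts of 0.1 and 5, equal totals, upper-quartile and TMM scaling gave 130 ratios of the 9 genes; 129 stayed within the counting interval, 1 did not (*Mef2c*, Ocn-EV over All-EV, 2.08 with equal totals). The sign differed in 1, *Msx2* for Ocn-EV over All-EV, at -0.11 as deposited and 0.11 with equal totals, on 5 reads in each library. The intervals of *Dlx5*, *Msx2* and *Phex* are so wide that their ratios could hardly leave them. *Phex* for Ocn-EV over All-EV, without an upper limit, was 5.41 and 0.87 with pseudocounts of 0.1 and 5, and counted as within. A filter of 200 left *Runx2*, *Alpl*, *Ibsp* and *Mef2c*, so that 3 were at least 2-fold higher for Ocn-EV over All-EV, 3 for Prx1-EV over All-EV and 1 for Ocn-EV over Prx1-EV, with medians of 2.26 for Ocn-EV over All-EV and 0.58 for Ocn-EV over Prx1-EV. With no filter the median for Ocn-EV over All-EV was 2.36. That value is the ratio of *Phex* itself, from 4 reads against 0, and so rests on the pseudocount. Equal totals moved the share of higher genes among all 2-fold genes to 82.2% (59.9% as deposited) for Ocn-EV over All-EV and to 80.0% (58.3%) for Prx1-EV over All-EV. An exact binomial test on reads, added after seeing the data and comparing libraries and not conditions, called 5, 5 and 4 of the 6 genes (the last for Ocn-EV over Prx1-EV, with *Alpl* added to the 3) and 7134, 7092 and 2840 of all 11067 genes, with Benjamini-Hochberg adjustment. No paired analysis was possible because each group has 1 library, and no replicate could be left out. Depth limits *Dlx5*, *Msx2* and *Phex*, with at most 14 reads.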

Other observations

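Some cartilage genes were higher against All-EV too. *Col2a1*, the main collagen of cartilage, which early osteochondral progenitors can also express, had a level of 7012 with Ocn-EV, 5950 with Prx1-EV and 651 with All-EV, 10.8-fold (9.89 to 11.8) and 9.14-fold (8.40 to 9.97) higher than All-EV. It was the only 1 of 10 chondrocyte markers at the expression filter. *Comp*, a cartilage matrix protein, had 52 reads with Ocn-EV, 36 with Prx1-EV and 4 with All-EV, 11.9-fold (4.38 to 45.3) and 6.94-fold (2.49 to 26.8) higher than All-EV. *Acan*, the cartilage proteoglycan, had 5 reads with Ocn-EV, 7 with Prx1-EV and 0 with All-EV, and *Sox9*, the factor that commits cells to cartilage, had 24, 32 and 42 reads in the same order. *Mme*, a cell-surface endopeptidase of the same family as Phex, had 53 reads with Ocn-EV, 29 with Prx1-EV and 1 with All-EV, a fold of 48.5 for Ocn-EV over All-EV with a counting interval of 8.33 to 1951.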
